A study of Mus musculus with 18 samples.

Results

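The 503 highest scoring GCLiPP peaks of mouse T cells were examined, out of 27729 peaks in the deposited list. GCLiPP (global cross-linking and protein purification) recovers stretches of RNA that were bound by any protein: proteins are fixed to RNA with ultraviolet light, tagged with biotin and captured, and the RNA they shield from RNase T1, an enzyme that cuts after G, is sequenced. Members were selected on that list's score and nothing else: all peaks with at least 261, the 500th highest score, with ties kept. They lay in 318 genes of 6688 named in the list. The score is a whole number whose meaning the labels and methods leave unstated. It was used to rank and describe peaks, with no test on it.

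The peak list was pooled from 10 GCLiPP libraries, 6 of Th2 cells and 4 of CD8 cells, and 8 RNA-seq libraries gave the RNA of the same genes. Cells came from mice labelled C57BL/6 (C57BL/6 J in the study's methods), and the study's methods give cells cultured from 3 mice for each GCLiPP preparation. Th2 cells (helper T cells that make type 2 cytokines) had been grown with IL-4, anti-Ifn-gamma and IL-2, and CD8 cells (cytotoxic T cells) with IL-12 and IL-2, in cultures of 5 days that began with anti-CD3 and anti-CD28 in all groups. Resting cells received no stimulus in the last 4 h and stimulated cells received PMA and ionomycin, which imitate signalling from the T cell receptor. The GCLiPP libraries were 3 of resting Th2, 3 of stimulated Th2, 2 of resting CD8 and 2 of stimulated CD8 cells, all irradiated at 254 nm with 8000 mJ. The same irradiation is given for every RNA-seq library. RNA-seq, on oligo-dT selected RNA, had 1 library for each of resting Th2, stimulated Th2, resting CD8 and stimulated CD8 cells, without and with actinomycin D, an inhibitor of RNA synthesis whose time of treatment is not stated for these libraries.

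The RNA-seq libraries held 24154849 to 31042504 gene reads. Every T cell marker examined (Cd3e, Cd3g, Cd3d, Cd2, Lck, Thy1 and Cd247) was at 4439 normalised reads or more in each library. Cd4 was at 20061 to 39568 normalised reads in the Th2 libraries and 25.9 to 281 in the CD8 libraries. Cd8a was at 10516 to 15750 in the CD8 libraries and 1331 to 2401 in the Th2 libraries. The Th2 marker Il1rl1 went against the labels, at 50.6 to 113 in the Th2 libraries and 2325 to 3563 in the CD8 libraries. None of the genes on the lists of B cell, myeloid, NK cell, erythroid and stromal markers held a member peak, and the most abundant of those genes in RNA was Ighm, an immunoglobulin chain, at a mean of 8329 normalised reads.

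The 3′ UTR of a messenger RNA is the stretch after the coding sequence where most regulatory proteins and microRNAs bind. Its end is set by cleavage and polyadenylation, which need a signal in the RNA, most often AATAAA in DNA letters, a short way before the cut. Proteins that bind there set how long a transcript lasts and how well it is translated. An abundant transcript offers more RNA to be captured, so a high score alone does not separate strong binding from a high level of RNA.

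The highest score of all belonged to a peak assigned to Vmp1, a membrane protein of autophagy, at chr11:86584096-86584165 on the minus strand (mm10). This was the only peak of Vmp1 and scored 22514. The interval also overlapped the hairpin of microRNA 21a (chr11:86584067-86584158) over 63 nt. It contained all 22 nt of miR-21a-5p, the main product of that hairpin, and 8 nt of miR-21a-3p. Their mature sequences (RefSeq, GRCm38.p6) are shown with the seed, bases 2 to 8, in capitals, because the peak cannot be assigned to the host transcript or to the hairpin from its position.
miR-21a-5p: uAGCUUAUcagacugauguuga
miR-21a-3p: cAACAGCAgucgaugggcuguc

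Several of the next highest peaks lay in sequence that other genes also carry. Lrrc58 (a leucine-rich repeat protein) held 7 member peaks of up to 4106, and its highest peak matched the transcript of Actb, which encodes beta-actin, at 98.5% identity over 68 nt. Wdr89 held 6 members of up to 2444, the highest of them matching Rplp2, a protein of the ribosomal stalk, at 98.6% over 70 nt. Wdr89 and Rplp2 were named after their values were seen. The only peak of Tmem38b (an intracellular cation channel) scored 5649, overlapped an annotated 5S ribosomal RNA copy and matched the 5S gene Rn5s at 100% over 56 nt. The 30-nt windows from these peaks are shown beside the matching GENCODE transcript, with capitals where the pair differ.
Lrrc58 (chr16:37883988-37884017, plus strand): gtccaCgccctgagtccaccccggggaagg
Actb: gtccaTgccctgagtccaccccggggaagg
Wdr89 (chr12:75631140-75631169, minus strand): cattgaggatgtcatTgctcagggtgttgg
Rplp2: cattgaggatgtcatCgctcagggtgttgg
Tmem38b (chr4:53860728-53860757, plus strand): acttggatgggagaccgcctgggaataccg
Rn5s: acttggatgggagaccgcctgggaataccg

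Other high peaks held a polyadenylation signal close to an annotated transcript end. The 6 highest scoring such peaks in annotated 3′ UTRs, 1 per gene, with no 25-nt word found in another gene are shown over 30 nt of the transcript strand, with AATAAA in capitals. Ap2s1 encodes a clathrin adaptor subunit, Mif a cytokine, Eef2 the elongation factor that moves the ribosome along, Cdkn1a the cell cycle inhibitor p21, Actg1 gamma-actin and Rgs1 an inhibitor of G protein signalling.
Ap2s1 (chr7:16749253-16749282, plus strand, score 1692): tgtgtgtgtgtagcccccAATAAAcctgtg
Mif (chr10:75859365-75859394, minus strand, score 1576): ccaccttccagccgggagaAATAAAtggtt
Eef2 (chr10:81182462-81182491, plus strand, score 1436): aatcattggagtAATAAActacagtggttg
Cdkn1a (chr17:29100690-29100719, plus strand, score 1179): aagctggtgctcAATAAAtacttctcgatg
Actg1 (chr11:120345695-120345724, minus strand, score 1100): attgtgtaaagaAATAAAagtgctgcagta
Rgs1 (chr1:144244691-144244720, minus strand, score 679): ttaaattatcattgtatcaatAATAAAtgt

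A pair of high members without AATAAA are shown for their base runs. Oaz1, the antizyme that slows polyamine synthesis, had a single peak of 4957 with a G run, and a peak of Pfn1 (profilin, an actin binding protein) scored 2524 and held a C run. Both runs are in capitals below.
Oaz1 (chr10:80829080-80829109, plus strand): cactccattagcGGGGtgcttcttcgagct
Pfn1 (chr11:70651961-70651990, minus strand): tggggctggatggacagacacctCCCCCta

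Scores fell steeply from the top. The members made up 1.81% of the peaks and held 28.8% of the summed score, and the 10 highest held 7.30% of it. Their median score was 396, against 24 over the whole list, whose lowest score was 13. Of the members, 65 scored at least 1000 and 24 at least 2000. At the threshold, 6 members scored 261. The last 3 of them lay in Ucp2, a mitochondrial carrier, in Pkm, the pyruvate kinase of glycolysis, and in Cish, an inhibitor of cytokine signalling. The first peaks below the threshold scored 260 in the kinase gene Pim1, 259 in Tmem160 and 258 in Aes.

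**Figure D1:**
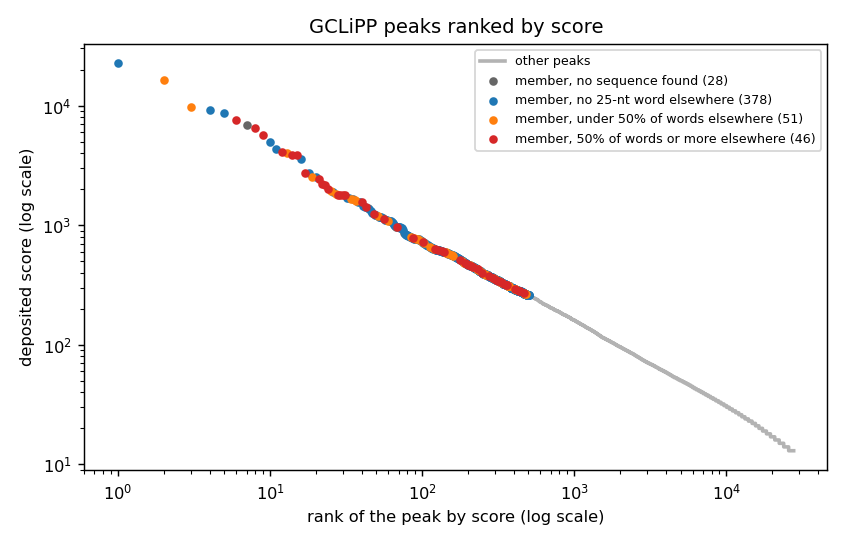
Deposited score of every GCLiPP peak against its rank, both on log scales. Grey shows other peaks and colours show the 503 members by the share of their 25-nt words found in transcripts of other genes, with 378 members free of such words and 46 at 50% or more, many of them near the top.

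Sharing of sequence was measured as the share of a peak's 25-nt words that occurred in the sense strand of transcripts of genes lying elsewhere. Sequence was found for 475 of the 503 members through GENCODE transcripts. Of these, 97 (20.4%) shared at least 1 word and 46 (9.68%) shared at least 50% of their words, against 5.06% and 1.87% of all 26458 peaks with sequence. Among the 30 highest peaks, 20 of the 29 with sequence shared a word and 14 shared at least 50%. The labels and methods do not say how reads that align to several places were counted, and the score of such a peak cannot be given to 1 gene.

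The actin group showed the sharing in both directions. All 8 peaks of Actb in the list were members, from 1611 to 9670, and together they summed to 42050, the highest total among the genes with a member. The Actb peak of 3850 and the Lrrc58 peak of 3888 had 78.3% of their words in common, and the Actb peak of 6548 and the Lrrc58 peak of 4106 had 56.5% in common. Pairs of members in different genes that shared words numbered 7, and they are named here after their values were seen. Beside the 4 pairs of Actb with Lrrc58, they were Rplp2 with Wdr89 (89.1% of words), Rpl37rt with Rpl37 (82.6%) and, in MHC class I, H2-D1 with H2-Q10 (23 words).

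Lars2, the mitochondrial leucyl-tRNA synthetase, held the second highest score. Its 5 peaks in the list were all members, at 16358, 9140, 8689, 4306 and 1771. The lowest of them matched the antisense gene Gm15564 at 98.5% over 68 nt and shared 65.2% of its words, and the highest matched AA474408, a transcript of unknown function, at 100% over 33 nt. The other 3 shared no word with the transcripts searched. A full 45S ribosomal RNA repeat was not part of the search, so whether the Lars2 peaks, or reads counted to Lars2, include other RNA was not tested.

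A few genes held many members. Of the 318 genes, 244 had 1 member, 32 had 2, 19 had 3, 3 had 4 and 20 had 5 or more. Laptm5, a lysosomal protein that limits antigen receptor signalling, had the most, with 11 members between 288 and 636. Arhgdia, Il2ra (the alpha chain of the IL-2 receptor) and Actb had 8 each. Pkm, Pim1, Lrrc58 and Thy1, a surface protein of T cells, had 7 each. Adjoining members rarely overlapped by much: merging those with at least 1 shared nt left 435 regions, and no pair shared 50% of its length.

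A member peak held a median of 34.1% of the summed score of its gene, against 12.7% for all peaks. The share follows from the score that chose the members and from the number of peaks. The only peak of a gene was a member in 69 cases, 13.7% of the members, against 7.99% of all peaks. The share was at least 50% in 180 members and under 10% in 69. The lowest share was 2.07%, for the Lrrc58 peak of 280. Where a member gene had 2 or more peaks, the highest was the one nearest the 3′ end in 54 of 249 genes (21.7%), against 1227 of 4223 other genes (29.1%). Member genes had a median of 4 peaks, against 2 over all genes in the list, and these shares were not adjusted for the number of peaks.

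The members lay mainly in annotated 3′ UTRs (435, or 86.5%, against 92.3% of all peaks). The authors called peaks within 3′ UTRs, so this class was largely set before any score was given. A further 57 (11.3%, against 4.89%) touched coding sequence, 6 lay in noncoding transcripts and 5 overlapped no annotated exon. Only 4 overlapped an annotated small RNA: the peaks of Vmp1 and Tmem38b described above and a pair in Eef1a1, the elongation factor that delivers tRNAs, at the small RNA gene Gm26377. A gene on the opposite strand lay at 44 members.

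Members were nearer to transcript ends than the list as a whole. The median distance from the centre of a peak to the nearest annotated transcript end was 172 nt over 498 members and 456 nt over 27126 peaks. Members within 100 nt of an end numbered 166 (33.3%), against 15.5% of all peaks. AATAAA occurred in 75 of 475 members (15.8%), against 6.56% of all 26458 peaks. Within 100 nt of an end the shares were 31.5% of 143 members and 23.5% of all peaks there, and farther away they were 9.04% of 332 members and 3.85% of all. Without the peaks that shared words, AATAAA stood in 13.8% of 378 members and in 6.40% of 25119 peaks.

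**Figure D2:**
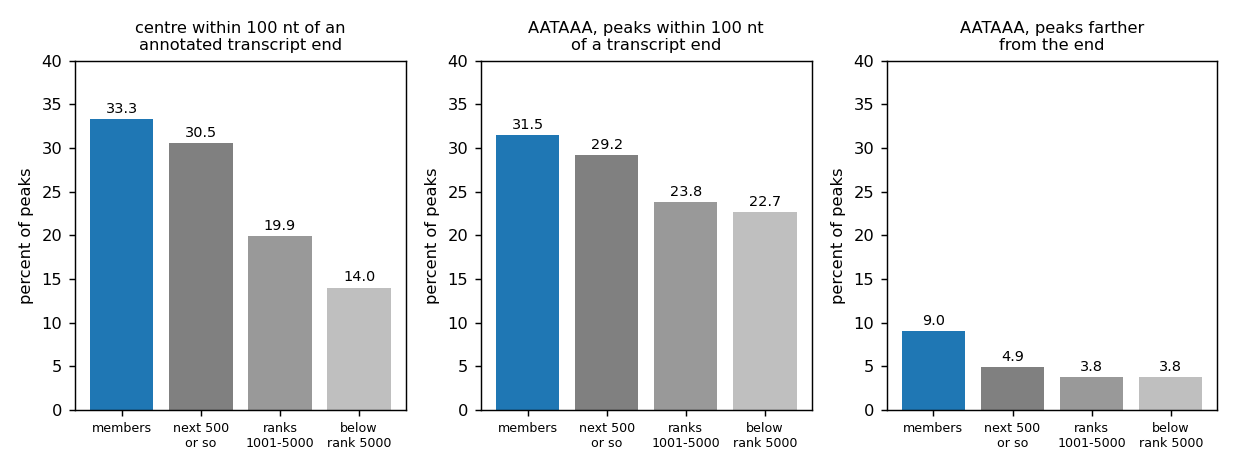
Percent of peaks, by rank of score, whose centre lay within 100 nt of an annotated transcript end (left), and percent with AATAAA among peaks within 100 nt of an end (middle) or farther away (right). Members are blue and lower ranks grey; each share is highest in the members, although in the left panel the next ranks are close, with 30.5% against 33.3%.

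Other motifs differed less. Runs of CCCCC stood in 10.3% of the members and 6.60% of all peaks, and TTTTTT in 6.53% and 4.94%. The AU-rich core ATTTA stood in 7.16% and 7.90%, the Pumilio motif TGTANATA in 2.11% and 1.72%, and the second polyadenylation signal ATTAAA in 2.53% and 3.01%. GGGG was in 20.8% and 21.3%, TGTTTG in 4.42% and 4.07% and TGTGTG in 8.42% and 7.08%. Each motif was read on the strand of the peak only, motifs may overlap, and the shares are descriptions of these windows, with members of 1 gene not independent of each other.

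RNA of the member genes was high. Of the 318 genes, 315 were in the RNA table and 313 of those were protein coding. Their median level was 1648 normalised reads per kb of exon, against 213 per kb over all tested genes, those averaging 50 normalised reads or more. Among the top 10% of those genes by level per kb were 183 of the 314 member genes with a length (58.3%), while 31 were below the median. The 100 genes highest per kb included 51 with a member peak and 85 with any peak. Over the 314 member genes, the highest score and the level per kb had a Spearman correlation of 0.18. Over 6480 genes with a peak it was 0.48. Member genes were kept for a high score, which narrows its range, so these correlations cannot be set against each other. Both are across genes in libraries and pools that share cell types, and genes are not replicates.

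**Figure D3:**
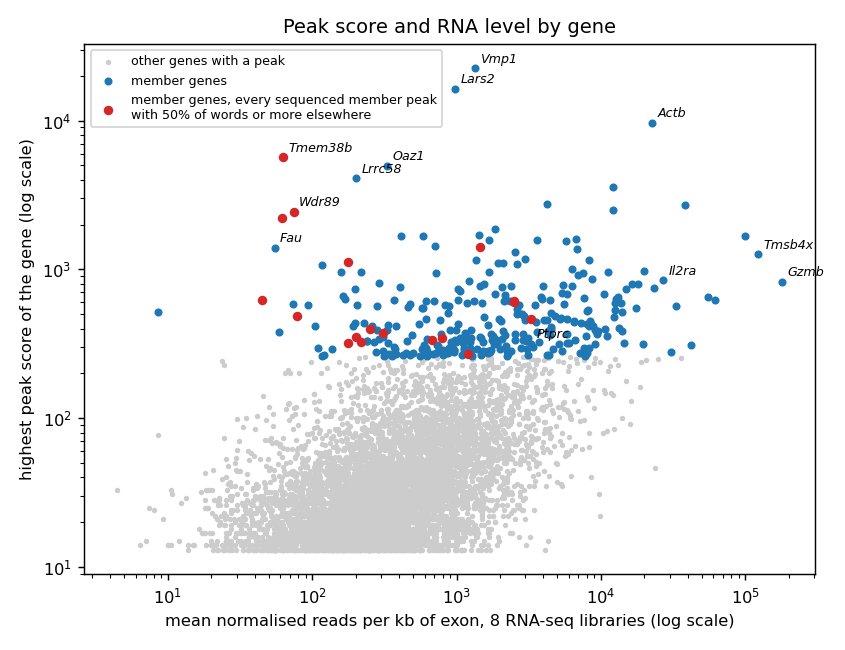
Highest peak score of each gene against its mean RNA level per kb of exon over 8 RNA-seq libraries, both on log scales. Member genes are blue, or red where every member peak with sequence shared 50% of its words or more. Tmem38b combines a high score with low RNA, and Gzmb (828) and Tmsb4x (1269) are at the right, below the highest scores.

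The genes with the highest score per normalised read had little RNA in the table. Reads are the divisor of this ratio, so its ranking leans that way by definition. Apart from 1 predicted gene, the highest was Fau, which encodes a ribosomal protein fused to a ubiquitin-like protein. It had 26.5 score units per mean normalised read (score 1398, mean 52.7 reads). Tmem38b had 23.8, Actg1 23.2 and Rpl24, of the large ribosomal subunit, 12.5. The highest Actg1 peak shared no word with other transcripts. Whether near-identical copies take reads from such genes in the RNA table was not tested, and the values of these genes are uncertain. At the other end were Hsp90ab1, a heat shock chaperone, at 0.0025 per read, Gzmb, the protease of cytotoxic granules, at 0.0032 and Eef1a1 at 0.0041. Ptprc, the CD45 phosphatase, was at 0.0052 and Il2ra at 0.0055.

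Actinomycin D asks which RNAs remain when synthesis is blocked, and member genes moved both ways. Of the 311 members tested, 72 were higher with the drug and 57 lower (limma on 4 pairs of libraries, adjusted p under 0.05 over 10972 genes, of which 38.7% were called, 16.8% higher and 21.9% lower). Among 3082 genes with at least as much RNA as the lower quartile of the members, 36.3% were called, 15.9% higher and 20.4% lower. The median change was 0.24 on the log2 scale, against 0.00 over all genes tested. In 75 members every treated library was above every untreated one, and in 40 every treated library was below (13.8% and 17.8% of all genes tested). Values are gene reads divided by a size factor of each library, whose basis is not stated, so changes are relative. Scaled to the ribosomal protein genes, 1 of 312 members was higher and 119 were lower, with their median at -0.39. Over all 11022 genes that scaling gave 43 higher and 4544 lower, with the median at -0.63. Quantile normalisation gave 104 members higher and 54 lower of 311. Over all 10972 genes it gave 2597 higher and 2012 lower, with the median at 0.13. A lower level in bulk RNA can come from fewer cells of a type or from less RNA per cell, and these cannot be told apart.

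The member that fell most with the drug was Nfkbia. This gene, the inhibitor of NF-kappa-B, was at 1082, 9434, 776 and 7239 normalised reads in the untreated resting Th2, stimulated Th2, resting CD8 and stimulated CD8 libraries, and at 151, 243, 53.2 and 112 in the treated ones. The treated libraries were all lower and the groups did not overlap (log2 change -4.49, SE 0.51, adjusted p = 0.0025). Slfn2, a growth regulator of T cells, was at 10088, 36860, 2229 and 11128 without the drug and 1438, 1644, 154 and 212 with it. It fell by 4.21 on the log2 scale (SE 0.43, adjusted p = 0.0022). Rgs1 fell by 3.68 and Rgs16, another inhibitor of G protein signalling, by 3.65 (adjusted p = 0.0032 and 0.0094).

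Clec2d, a ligand of an inhibitory NK cell receptor, came next. It was at 2485, 2441, 1836 and 1526 in the untreated libraries and at 256, 252, 134 and 106 in the treated ones, in the same order. It fell by 3.54 (SE 0.17, adjusted p = 0.0013). Its stimulation change was -0.15 (adjusted p = 0.49, limma).

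Lars2, with the second highest peak, was the member whose value rose most with the drug. Its values were 4200, 6801, 5152 and 9371 in the untreated libraries and 13480, 11839, 14992 and 21012 in the treated ones, without overlap. The change was 1.30 (SE 0.17, adjusted p = 0.0037). Ppdpf (a regulator of cell differentiation), Ccni (cyclin I), Aes (a transcriptional corepressor) and H2-Q10 (MHC class I) followed, with changes of 1.04, 1.02, 1.00 and 0.98. The H2-Q10 peak shared 82.6% of its words with 6 other genes, so the RNA values of H2-Q10 are uncertain. With ribosomal scaling Lars2 changed by 0.67 (limma adjusted p = 0.016), and the calls of the other 4 were lost, with changes of 0.35 to 0.41 (adjusted p = 0.12 to 0.30). Vmp1, with the highest peak, went the other way. It was at 6264, 9252, 5613 and 6005 without and at 4098, 4650, 2930 and 2660 with the drug, and fell by 0.93 (SE 0.14, adjusted p = 0.0049). Actb stood at 53217, 75056, 61143 and 79040 without and at 44408, 38717, 67992 and 64439 with the drug, which overlapped (change -0.34, SE 0.19, adjusted p = 0.19). Among the genes sharing sequence, Lrrc58 fell by 0.84 (adjusted p = 0.021).

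Stimulation raised more of the members than it lowered. In the untreated libraries 63 of 312 members were higher in stimulated cells and 3 lower (limma on 2 cell types, adjusted p under 0.05, where 13.3% of 10944 genes were called, 7.79% higher and 5.56% lower). Among the 3082 genes with as much RNA, 15.5% were called, 10.2% higher and 5.35% lower. The median change was 0.36 over the members and 0.04 over all genes tested. The test rests on 1 library for each cell type and state. Without cell type as a block no member was called by limma, with 75 at an unadjusted p under 0.05, while edgeR called 49 and DESeq2 76. With ribosomal protein scaling 31 of 312 members were higher and 37 lower, with their median at -0.045. Over all 10958 genes that scaling gave 531 higher and 3014 lower, with the median at -0.36.

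**Figure D4:**
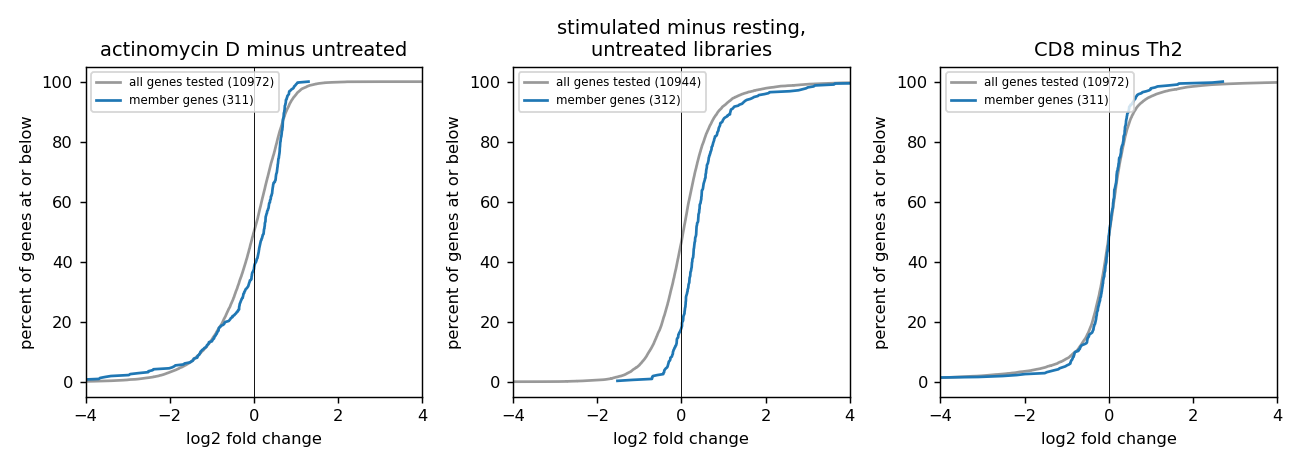
Percent of genes at or below each log2 fold change, for 311 or 312 member genes (blue) and all genes tested (grey), in 3 contrasts. The members lie to the right of all genes for stimulation, where their median is 0.36 against 0.04, and close to all genes between CD8 and Th2 cells.

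The member that rose most was Ccl4, a chemokine. It was at 109 and 69.5 normalised reads in resting Th2 and CD8 cells and at 6259 and 21439 in stimulated ones, a log2 change of 7.04 (SE 0.60, adjusted p = 0.020). Rgs16 went from 174 and 504 to 10783 and 18504 (5.57, adjusted p = 0.0086). Il21 and Il13, cytokines that help B cells and drive type 2 responses, changed by 3.65 and 3.63, and Nfkbia by 3.17. For each of these genes the stimulated library was above the resting one in both cell types.

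The 3 members that fell were Socs2, an inhibitor of cytokine signalling, Slc25a36, a mitochondrial nucleotide carrier, and Arl6ip1, a membrane shaping protein of the endoplasmic reticulum. Socs2 was at 6197 and 1952 in resting and at 2352 and 626 in stimulated Th2 and CD8 cells and fell by 1.52 (SE 0.14, adjusted p = 0.022). Slc25a36 fell by 0.70 and Arl6ip1 by 0.69, both with an adjusted p of 0.045.

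**Figure D5:**
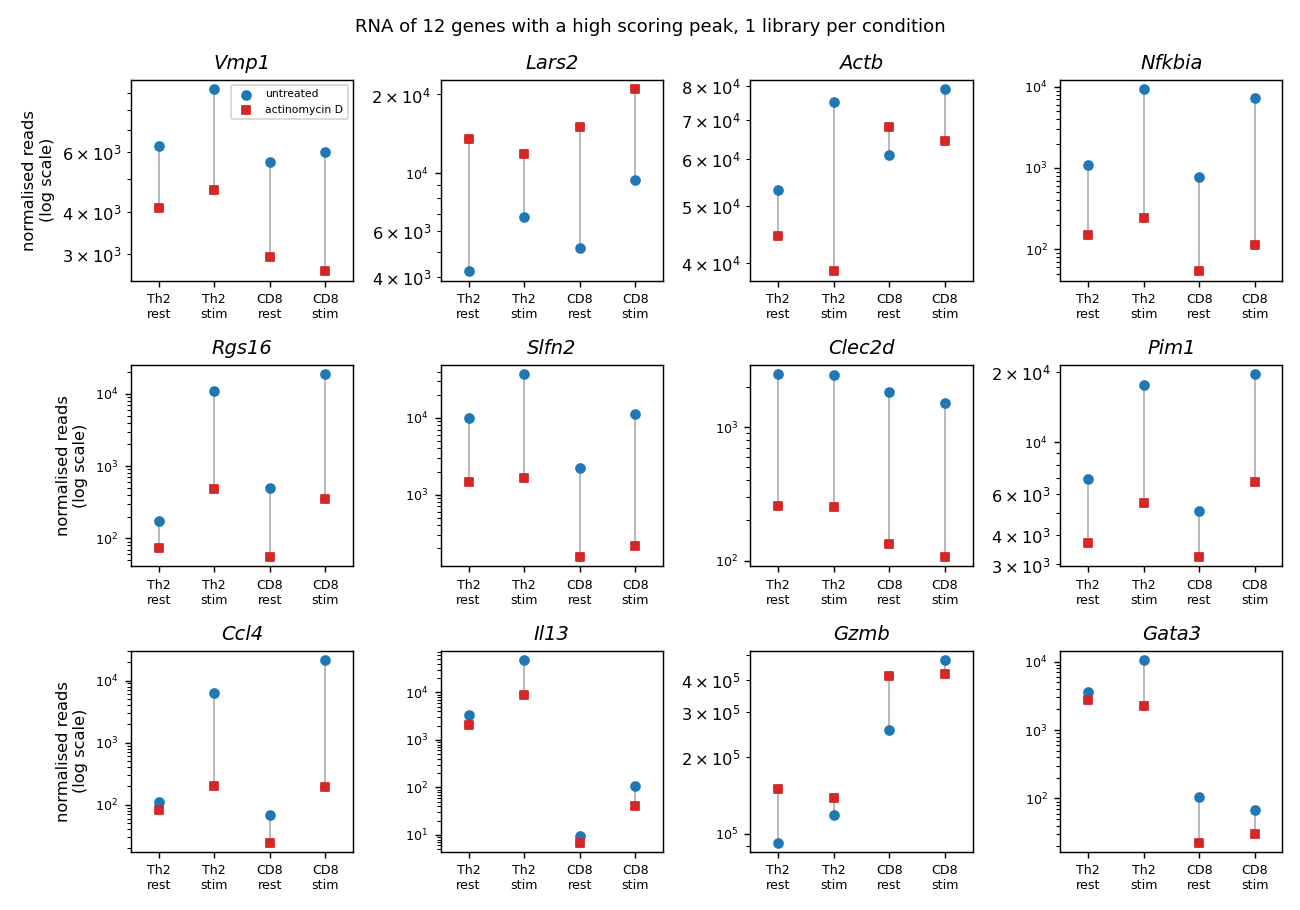
Normalised reads on a log scale in each of the 8 RNA-seq libraries for 12 genes with a member peak, untreated (circles) and with actinomycin D (squares), joined within a cell type and state. Nfkbia, Rgs16, Slfn2 and Clec2d are lower with the drug in every pair, Lars2 is higher in every pair, and Il13 and Gata3 differ mainly between Th2 and CD8 cells.

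The actinomycin change itself differed between stimulated and resting pairs in 42 of 311 members. In 41 of them it was more negative in stimulated cells and in 1, Socs2, less (limma interaction term, chosen after seeing the data, where 6.08% of all genes were called). The directions over all genes are not given, and the term was fitted only to the values as deposited. The stimulation and actinomycin contrasts use the same untreated libraries. A high untreated stimulated value therefore raises the stimulation change and lowers this difference. Junb, an AP-1 transcription factor, showed the difference: untreated and treated values were 640 and 966 in resting Th2, 4075 and 604 in stimulated Th2, 408 and 403 in resting CD8 and 3050 and 406 in stimulated CD8 cells. Its change was 3.11 lower in stimulated pairs on the log2 scale (SE 0.28, adjusted p = 0.016).

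Between cell types the share of members called was near that of all genes. Of 311 members, 31 were higher in CD8 cells and 38 in Th2 cells (limma over 8 libraries, where 21.5% of genes were called, 9.97% higher and 11.5% lower), with a median change of 0.01. Of the 3082 genes with as much RNA 21.7% were called, 11.4% higher and 10.3% lower. Summed markers of other cells also differed between the cell types. The 8 B cell markers summed to 9167 to 13145 normalised reads in the Th2 and 3388 to 8263 in the CD8 libraries, and the 12 myeloid and antigen-presenting markers to 5145 to 7371 and 898 to 1832. The stromal list summed to 1169 to 1917 and 350 to 776, the NK cell list to 86.1 to 168 and 260 to 376, and the erythroid list to at most 9.84 in any library. Most of the B cell sum was Ighm, at a mean of 8329, and most of the stromal sum was Pecam1, at 1039. The next highest means in those lists were 218 (Cd79b) and 9.02 (Col1a1). The part of these lists in the cell type differences was not tested. In 17 members all CD8 libraries were above all Th2 libraries and in 20 they were below (7.36% and 8.6% of all genes tested). The largest difference was that of Il13. It was at 3356, 48058, 2066 and 8679 in the Th2 libraries (resting, stimulated and both again with the drug) and at 9.33, 109, 6.89 and 39.7 in the CD8 libraries, a log2 difference of -8.22 (SE 0.32, adjusted p = 5.3e-06). Gata3, the transcription factor of Th2 cells, was at 2280 to 10567 in the Th2 libraries and at 22.6 to 104 in the CD8 libraries, a difference of -6.35. Il21, Il24 and Itm2a followed with -6.22, -4.78 and -3.10.

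Nkg7, of cytotoxic granules, was higher in CD8 cells by 2.71 (SE 0.21, adjusted p = 0.00011), at 2391 to 4360 in the Th2 libraries and 14758 to 26407 in the CD8 libraries. Furin, a protease that matures growth factors, was higher by 2.45 and Zbtb32, a repressor of T cell activation genes, by 1.66. Gzmb was higher by 1.64, at 92569 to 149171 in Th2 and 255366 to 476654 in CD8 cells, and Runx3, the transcription factor of CD8 cells, by 1.42.

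Of the functional lists, ribosomal proteins supplied the most member genes. Of 87 in the RNA table, 81 had a peak and 39 a member, among them Rpl41 (2747), Rpl29 (1668) and Rpl10a (1666). Of the 38 tested for the drug, 13 were higher and 6 lower as deposited, but 0 and 9 after scaling to the ribosomal protein genes themselves. The 6 lower included Rpl10a, at 1046 and 2532 normalised reads in untreated resting and stimulated Th2 cells and 490 and 125 with the drug, and it fell by 2.50 (SE 0.54, adjusted p = 0.015). With stimulation 16 of 39 were higher and 0 lower, and 9 were higher with quantile normalisation and 6 with ribosomal scaling. Over the whole list as deposited, 28 of 78 were higher and 13 lower with the drug, and 28 of 81 higher with stimulation. Of the 27 member genes with sequence, 17 shared words with other transcripts in every member peak, so their scores and reads are uncertain. No member of this list was called between cell types, with Rpl41 at a change of 0.01.

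Translation factors and the actin cytoskeleton came next. Of 31 translation factors 12 had a member peak, led by Eef2 (2726), Eif5a (681), which eases peptide bond formation, Tpt1 (665) and Eef1a1 (623). With the drug 5 of 12 were higher and 1 lower, but 0 higher and 5 lower with ribosomal scaling, and with stimulation 5 were higher (2 with quantile normalisation, 1 with ribosomal scaling). The whole list of 31 had 7 higher and 7 lower with the drug and 6 higher with stimulation, as deposited. Eef2 changed by 0.71 with the drug (limma adjusted p = 0.047) and 0.59 with stimulation (adjusted p = 0.044). Neither call held with ribosomal scaling (0.08, adjusted p = 0.65, and 0.19, adjusted p = 0.25) or with quantile normalisation. Of 40 actin cytoskeleton genes 18 had members, 49 peaks in all, among them Actb, Pfn1, Tmsb10 (1546) and Tmsb4x (1269), both actin sequestering peptides. Of 17 tested with the drug 1, Tmsb4x, was called, with a change of 0.61 (-0.022 with ribosomal scaling), and 2 of 18 rose with stimulation. For the drug quantile normalisation gave 6 higher and 1 lower and ribosomal scaling 0 and 7, and both scalings gave 0 with stimulation. As deposited, the whole list had 4 of 39 higher and 1 lower with the drug and 4 of 40 higher with stimulation. In glycolysis 10 of 18 genes had members, led by Aldoa (3578), Gapdh (1129), Gpi1 (1081) and Pkm (956). With the drug 3 were higher and 2 lower, 5 and 2 with quantile normalisation and 0 and 2 with ribosomal scaling. Among all 18 glycolysis genes 4 were higher and 3 lower as deposited. Gapdh, whose peak shared 60.9% of its words with 7 other genes, was at 317 to 1217 normalised reads and fell by 1.34 with the drug. How reads that match such copies were counted is not stated, so the RNA values of Gapdh are uncertain too.

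Surface proteins of T cells included 8 members out of 25 receptor and coreceptor genes, led by Cd2 (1373), Thy1 (648), Cd52 (529) and Cd3d (524). With the drug 5 were higher and 0 lower as deposited, and 0 higher and 2 lower with ribosomal scaling. Among all 25 genes of the list 8 were higher and 2 lower as deposited. Cd3d changed by 0.62 as deposited and by -0.0043 with that scaling. Cd2, an adhesion receptor, was lower in CD8 than Th2 cells by 0.81 (SE 0.12, adjusted p = 0.0030). The peak of Cd3e, a signalling chain of the receptor, scored 349, and that of Arrb2, a receptor adaptor also named in the study, 567. The MHC class I list had 3, B2m (1684), H2-D1 (513) and H2-K1 (383), and H2-Q10 (399) and H2-Q9 (362) held members outside that list. Cytokine receptors had 2, Il2ra (846) and Il2rb (646). Il2ra changed by 0.56 with stimulation (adjusted p = 0.044), a call lost with quantile normalisation (0.25, adjusted p = 0.15) and ribosomal scaling (0.16, adjusted p = 0.30).

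Lists of activation and cell cycle genes followed. Of 30 cytokines and chemokines 4 had members: Ccl4 (697), Il21 (624), Il13 (452) and Il24 (357). All 4 rose with stimulation under each scaling tried, and with the drug 2 were lower as deposited and 3 with ribosomal or TMM scaling. In the whole list, as deposited, 21 of 29 rose with stimulation and 10 of 28 were lower with the drug. Of 38 immediate-early genes 5 had members, among them Junb (551), Irf4 (458), Btg1 (428) and Jund (341). With stimulation 4 of 5 were higher, beside 28 of 37 in the whole list. With the drug 3 of 5 were lower (5 with ribosomal scaling), beside 19 of 38 lower and 2 higher in the whole list as deposited. Irf4, a factor of activated T cells, fell by 2.97 with the drug and Btg1, an antiproliferative protein, by 1.87. Of 4 transcription factors with members, Id2 (576), Nfkb1 (482), Runx3 (307) and Gata3 (280), 3 were lower with the drug (4 with quantile or ribosomal scaling). In the whole list 18 of 33 were lower as deposited. Of the D cyclin and PIM kinase list, Pim1 (1314), Cdkn1a (1179) and Ccnd2 (347) fell with the drug and Ccnd3 (465) did not pass as deposited (0.65, adjusted p = 0.058) but rose with quantile normalisation. As deposited, 9 of 17 genes of that list were lower with the drug and 3 higher. Pim1 was at 6966, 17598, 5084 and 19468 in the untreated and 3700, 5508, 3227 and 6735 in the treated libraries, in the order used for Nfkbia.

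RNA-binding proteins were themselves among the genes with members. Of 49 hnRNP, SR and splicing factor genes 9 had one, led by Srsf2 (1572), Hnrnpa1 (760), Rbm3 (580) and Hnrnpc (502). Of these 9, 4 were lower with the drug and 0 higher (2 and 1 with quantile normalisation), with Srsf2, a splicing activator, at -0.42 (limma adjusted p = 0.048, and 0.053 with quantile normalisation). Among all 49 genes 12 were lower and 2 higher as deposited. Of 46 genes of mRNA decay and 3′ UTR binding 4 had members: Ybx1 (468), Pum2 (366), Celf2 (362) and Pabpc1 (297), the poly(A) binding protein. Pum2, which binds the Pumilio motif, fell by 0.79 and Ybx1, a cold shock domain protein, changed by 0.61 (-0.018 with ribosomal scaling). Chaperones gave 5 of 28, led by Canx (1005) and Hspa8 (578), histone and chromatin genes 3 of 24, led by Ptma (1097), tubulin genes 3 of 10, led by Tubb4b (593), granule genes 2 of 13, proteasome genes 1 of 37 (Psmb4, 291) and selenoproteins 1 of 14 (Sepw1, 286). In these 6 lists Tubb4b fell by 1.45 with the drug, Hspa8 fell by 0.46 and Sepw1 changed by 0.69 (0.06 with ribosomal scaling).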

How the data were processed

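The members, lists and tests were chosen with earlier results of these data known. GCLiPP reads were aligned by the authors with Bowtie2 to mm10, experiments were pooled and peaks of 70 nt were called in 3′ UTRs. The deposited peak score is given by the authors without a stated meaning. RNA-seq reads were aligned by the authors with STAR to mm10. The deposited RNA table holds the authors' normalised signal: 100% of values in each library were whole multiples of 1 step within 0.01 read, i.e. gene reads divided by a size factor, whereas length-scaled values appear in the methods. Neither counting tool nor strand use was stated. A second table repeated the 8 value columns and further held the authors' own ratios, which were not used. Peaks carry 1 pooled score each, and GCLiPP was not compared between groups.

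Labels gave the groups. Each RNA-seq condition had 1 library, so matched libraries served as replicates and p-values measure only their spread. On log2(value + 1), limma 3.58.1 was fitted, with a trend of variance on level, for genes with a mean of at least 50, with Benjamini-Hochberg adjusted p under 0.05, and was tested on simulated data. Fold changes understate the change of low genes. The drug contrast paired libraries by cell type and state, stimulation used the 4 untreated libraries with cell type as a block, and the cell type contrast was additive in state and drug. A block here is a condition given by the labels, not a shared culture. edgeR 4.0.16 and DESeq2 1.42.0 were run on reads recovered for 7 libraries, and the stimulated CD8 library with the drug was left out because its step was near 1. Levels per kb used GENCODE M21 exon lengths. Peak sequence came from GENCODE M21 transcripts, and matches from BLAST+ 2.17.0 (e-value 0.001, best match outside the peak's own locus). Of the 318 genes, 3 were not in the RNA table and 4 had a mean under 50 over the 8 libraries. Named genes were those of the 10 highest peaks, those with the most members, the 5 largest called rises and falls per contrast, up to 4 per list of 25 lists, threshold neighbours, the 5 highest and lowest scores per read, and genes named in the study; 1 gene that this rule names is not reported here. Alternatives were other pseudocounts, filters, scalings, tools, blocks, thresholds and leaving out libraries.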

Additional observations from a re-analysis of the deposited data

Results flagged for a closer look

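The change with actinomycin D differed between stimulated and resting pairs, by a limma interaction term, in 13 of the named genes. Differences are given as the stimulated minus the resting change on the log2 scale, with adjusted p between 0.016 and 0.047. The chemokine Ccl4 had -4.95. The AP-1 factors Junb and Jund had -3.11 and -1.55, and the NF-kappa-B genes Nfkbia and Nfkb1 had -2.30 and -1.61. Ribosomal protein genes Rpl10a, Rpl29 and Rpl41 had -2.48, -2.16 and -1.45. The translation factors Eef2 and Eif5a had -0.98 and -0.96, Zbtb32 had -2.19 and Nkg7 -0.97. Socs2 was the exception in direction, with 1.67. Each side of a difference rests on 1 pair per cell type, and no other scaling was tried for this term.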

How the results depend on the processing

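Member calls for the drug moved from 129 to 74 with edgeR, which also lacked the treated stimulated CD8 library, and to 72 to 146 when 1 pair was left out, with 83, 78 and 72 without the stimulated CD8, resting CD8 and resting Th2 pairs; no replicate block gave 172. For stimulation 66 became 132 with no filter, 41 with quantile normalisation, 0 with no replicate block and 1 in an additive model of 8 libraries. A pooled model with the interaction, chosen after seeing the data, gave 111, and 34 to 123 without 1 untreated library (34 without resting Th2, 123 without stimulated CD8); leaving one out of the 4 alone allowed no test. Between cell types 69 became 39 with edgeR, again without that library, and 119 with state and drug as a replicate block, and 34 to 67 without 1 library: 34 without the treated stimulated CD8 library, 41 to 43 without resting CD8, treated resting CD8 or treated resting Th2. With the 250th or 1000th score as the threshold 161 or 576 genes held members; merging overlaps changed neither the gene count nor, since it acts on peaks, any call. No paired analysis was possible for GCLiPP because the peak list has no values per library. With the ribosomal scaling the drug changes of B2m (-0.085), Cd3d (-0.0043), Cd3e (-0.11), Eef1a1 (-0.0072), Gpi1 (-0.064), H2-D1 (-0.056), Laptm5 (-0.0076), Tmsb4x (-0.022) and Ybx1 (-0.018) turned negative, and that of Rpl10a with stimulation (-0.14) turned in the additive model. Of 1606 values of named genes, 1273 kept direction and call, 323 lost the call and 10 turned. The cause was not tested. Other alternatives left the totals within 1.5 times, although ribosomal scaling split them into 1 higher and 119 lower with the drug and 31 and 37 with stimulation. That scaling moved all genes tested as well, with 43 higher and 4544 lower with the drug and 531 and 3014 with stimulation. The 1 library per condition limits the precision of every contrast.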
